A study of Mus musculus with 20 samples.

Results

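The solute carrier (SLC) families SLC1, SLC3, SLC6, SLC7, SLC36, SLC38 and SLC43 hold most of the transporters that carry amino acids across the plasma membrane and the lysosomal membrane, and their RNA was followed here in mouse liver after interleukin-1β (IL-1β), a cytokine that starts the acute phase response. The members were all genes whose symbol is the name of 1 of these 7 families followed by a member number. They came to 60 of the 37681 genes of each deposited table, all annotated as protein-coding, with 59 different symbols because Slc38a9 is listed under 2 identifiers. Of these, 35 were detected, meaning that 5 or more of the 10 libraries of a table held at least 5 reads, and 15578 genes passed this minimum in all. The rule used the gene names alone and no measured value.

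Male 12-week-old C57/B6J mice received 20 µg/kg IL-1β (5 mice, labelled ILB) or saline (5 mice, labelled UNT and called untreated here), and whole liver was collected 4 h later. The labels name no transgene or deleted allele in either group. Poly(A)-selected RNA from each of the 10 livers was sequenced as a strand-specific library on an Illumina HiSeq and as another on an Ion Torrent Proton. Reads of each platform were aligned in 3 ways (GSNAP, STAR, and STAR followed by Bowtie2), which gave 6 tables of gene counts, each with the same 10 mice.

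The 20 libraries held between 10568530 and 12008799 counts in the Illumina tables and between 12199528 and 16439683 in the Ion Torrent tables, and the IL-1β libraries held fewer than the untreated libraries in each table. Mouse UNT_9584 stood apart: the deviations of its libraries from the treatment means correlated at 0.197 to 0.249 between the platforms, against 0.591 to 0.746 for the other 9 mice. The study also reported lower correlations of its read counts between the platforms, and a shift in its Ion Torrent read lengths. It proposes that read length could add technical variability on that platform. The labelled tissue was checked on its markers: 9 hepatocyte genes, Alb among them, had a summed level of 96806 to 117218 CPM (counts scaled to a common library size) in untreated and 69986 to 84087 CPM in IL-1β livers (Illumina, GSNAP). Because whole liver was sequenced, fewer cells of a type and less RNA per cell cannot be told apart.

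Amino acid transporters differ in how they are driven and in what they carry. SLC1 members use the sodium gradient to concentrate glutamate or small neutral amino acids. SLC6 members carry glycine, taurine, GABA, betaine, creatine and monoamines with sodium and chloride. SLC7 holds the cationic amino acid transporters, which work alone, and the light chains, which reach the membrane only when joined by a disulfide bond to a heavy chain of the SLC3 family. SLC36 holds proton-coupled transporters such as Slc36a1, and SLC38 members move glutamine, alanine and other neutral amino acids with sodium. In SLC43, Slc43a1 and Slc43a2 carry neutral amino acids without sodium, whereas Slc43a3 carries purine nucleobases. The liver takes up alanine and glutamine through SLC38 transporters to feed gluconeogenesis and the urea cycle, and during the acute phase response it also makes large amounts of secreted protein.

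IL-1β moved these genes in both directions. With edgeR's quasi-likelihood test and Benjamini-Hochberg adjustment over the 15578 genes, 12 of the 35 detected members were higher and 9 lower in the Illumina GSNAP table at an adjusted p below 0.05, which is 60.0% of the members. Of all genes tested there, 23.7% were higher and 23.9% lower, 47.5% in sum. The Illumina STAR and STAR + Bowtie2 tables each had 12 members higher and 10 lower, or 62.9%. The background was 22.7% higher and 22.9% lower with STAR (45.7% in sum), and 22.9% and 24.4% with STAR + Bowtie2 (47.4% in sum). On Ion Torrent 12 members were higher and 12 lower after GSNAP (68.6%), 11 and 12 after STAR (65.7%), and 11 of each after STAR + Bowtie2 (62.9%). Of all genes 22.5% were higher and 23.9% lower in the GSNAP table (46.4% in sum), 20.3% and 21.8% in the STAR table (42.1%), and 22.8% and 24.0% in the STAR + Bowtie2 table (46.7%). The share of members called lay above that of all genes in each table, a difference that was not tested. These shares include Slc1a1 and Slc6a4, whose directions were fixed by the minimum of reads, as given below.

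The rank-sum test that the study used called 19, 20 and 20 members in the Illumina tables with GSNAP, STAR and STAR + Bowtie2, where it called 40.1%, 38.1% and 39.8% of all genes. It called 18, 19 and 19 members in the Ion Torrent tables, where it called 38.8%, 35.7% and 38.6% of all genes. By this test, run on the counts without TMM scaling, the Illumina split was 9 higher and 10 lower with GSNAP and 10 of each with STAR and with STAR + Bowtie2. On Ion Torrent the split was 9 of each with GSNAP, and 9 higher and 10 lower with STAR and with STAR + Bowtie2. Levels of the 5 IL-1β mice and the 5 untreated mice did not overlap for 20 members in the Illumina GSNAP table (background 35.2%) and for 18 in the Ion Torrent GSNAP table (background 33.9%).

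The calls pointed the same way in different tables. Higher in all 6 tables were 10 members: Slc7a6, Slc1a1, Slc7a1, Slc6a8, Slc7a7, Slc43a1, Slc1a5, Slc38a2, Slc3a2 and Slc36a4 (17.3% of all genes met this criterion). Another 9 were lower in all 6: Slc6a4, Slc36a1, Slc38a4, Slc38a9, Slc6a13, Slc38a7, Slc38a6, Slc6a12 and Slc38a3 (17.6% of all genes). In none of the tables were 8 members called (40.8% of all genes), the remaining 8 were called in 1 to 5 tables, and 0 members were called in opposite directions. Slc1a1 reached the minimum of reads through its IL-1β libraries alone and Slc6a4 through its untreated libraries alone, so that the minimum fixed their directions. Apart from these, 9 members were higher and 8 lower in all 6 tables. Leaving out any single mouse kept all 10 of the higher members. The lower members numbered 7 to 9 in these fits, since Slc38a3 or Slc6a4 fell short of the threshold in at least 1 table without some of the mice. Both dropped out without ILB_9578, without ILB_9579 and without UNT_9584, which left 7 each time. By family, the SLC7 genes had 3 to 5 of 7 detected members higher and 0 lower, depending on the table, and the SLC38 genes had 1 to 2 of 10 higher and 5 to 6 lower. In the SLC1 family 2 of 5 were higher and 0 to 1 lower, and in the SLC6 family 1 of 6 was higher and 3 to 4 lower. The 2 higher SLC1 members were Slc1a5 and Slc1a1, and Slc6a4 was among the lower SLC6 members. The minimum of reads thus fixed a part of both counts. Of all genes 20.3% to 23.7% were higher and 21.8% to 24.4% lower, so that 1 of 6 or 0 to 1 of 5 lies near or under the background. Median log2 fold changes ran from 0.54 to 0.98 in SLC7 and from -0.59 to -0.37 in SLC38, where the median of all genes was between -0.01 and 0.00.

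**Figure D1:**
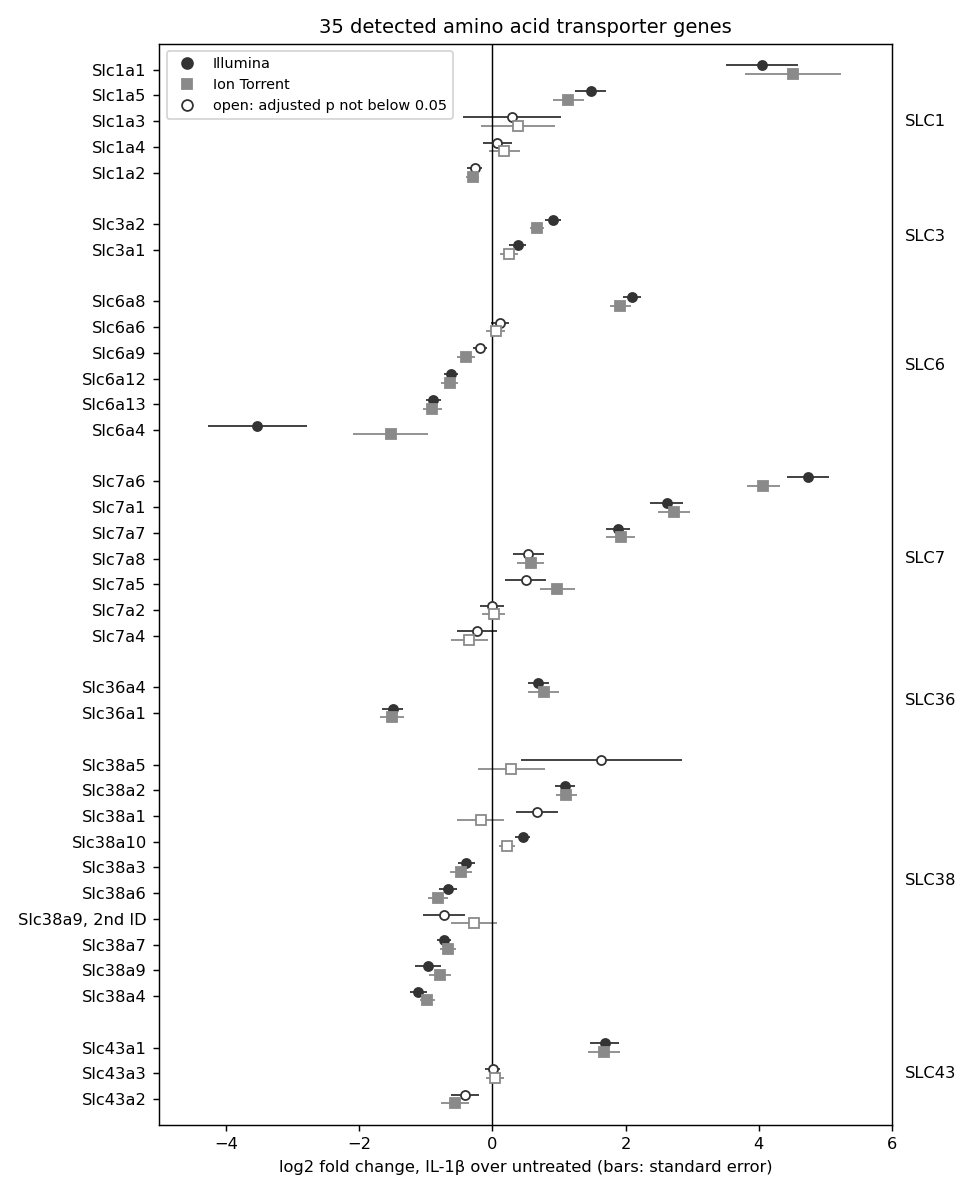
Log2 fold change of IL-1β over untreated livers for the 35 detected members, grouped by family, from the Illumina (circles) and Ion Torrent (squares) GSNAP tables; bars are standard errors, n = 5 mice per group, and open symbols did not reach an adjusted p below 0.05. The SLC7 genes spread to the right up to 4.74 (Slc7a6, Illumina), while most SLC38 genes lie left of 0.

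Unless another table is named, values below come from the GSNAP tables, and reads listed by library follow the mouse numbers, from UNT_9574 to UNT_9584 and from ILB_9577 to ILB_9583. Folds and log2 fold changes are those of edgeR after scaling library sizes by the trimmed mean of M values (TMM), and levels compared between genes are CPM per kb of exon. Gene positions are from the annotation of the mm9 genome build used by the files. The light chains of the SLC7 family are taken up first, with their heavy chain.

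Slc7a6 (chr8:108692775-108722604, plus strand) encodes y+LAT2, a light chain that exports arginine in exchange for glutamine and sodium. It had 5, 8, 5, 3 and 3 reads in the untreated Illumina libraries and 65, 154, 121, 144 and 97 after IL-1β. The lowest IL-1β library thus held 65 reads against 8 in the highest untreated library. The fold was 26.7 (log2 4.74, SE 0.32, adjusted p = 3.53e-08 by edgeR). On Ion Torrent the untreated libraries held 12, 7, 5, 9 and 9 reads and the IL-1β libraries 88, 158, 149, 131 and 117, a fold of 16.8 (log2 4.07, SE 0.25, adjusted p = 5.67e-09 by edgeR). ILB_9577 was the lowest of its group on both platforms, and of the other members only Slc1a1, described below, had a fitted fold change of this size.

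Slc7a7 (chr14:54989128-55032856, minus strand) encodes y+LAT1, the related light chain whose loss causes lysinuric protein intolerance. Its untreated Illumina counts were 38, 31, 23, 36 and 25 and its IL-1β counts 119, 85, 112, 114 and 74, again without overlap. The fold was 3.70 (log2 1.89, SE 0.18, adjusted p = 1.47e-06 by edgeR), and on Ion Torrent it was 3.80. Its exons share at most 226 bases with Oxa1l on the other strand, and whether the counting used strand is not given in the sources used here. Oxa1l itself was lower with IL-1β (log2 -0.29 and -0.42 on Illumina and Ion Torrent).

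Slc7a5, the light chain LAT1 for leucine and other large neutral amino acids, and Slc7a8, the light chain LAT2, had smaller fold changes. Slc7a5 was called higher in the 3 Ion Torrent tables (log2 0.90 to 0.98) and in 0 of the Illumina tables (0.50 to 0.65). Its untreated Illumina counts ran from 22 to 87 and its IL-1β counts from 46 to 65, so UNT_9574, at 87, lay above all of the IL-1β libraries and UNT_9575, at 64, within them. Without UNT_9574, Slc7a5 was called higher in all 6 tables. Slc7a8 was called higher in 1 table, Ion Torrent GSNAP, with log2 fold changes of 0.48 to 0.58 over the 6 tables. The difference between platforms in the effect on Slc7a5 was 0.42 on the log2 scale with GSNAP (95% interval -0.04 to 0.89) and was not called.

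The heavy chain Slc3a2 (4F2hc or CD98, chr19:8781372-8797859, minus strand) rose, with a smaller fold change than Slc7a6 and Slc7a7. Its Illumina counts were 344, 447, 459, 408 and 356 untreated and 639, 835, 619, 674 and 586 after IL-1β, with no overlap, a fold of 1.88 (log2 0.91, SE 0.12, adjusted p = 1.82e-05 by edgeR). On Ion Torrent the counts were 540 to 685 and 794 to 963, a fold of 1.59. A stretch of 170 bases of its transcript is 97.6% identical to Trpv2, which had means of 11.4 and 15.6 reads in the Illumina table.

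Set against the heavy chain, the light chains gained. Their summed level, Slc7a5 to Slc7a8, had a median of 2.68 CPM per kb in untreated livers (1.99 to 4.30) and 9.90 after IL-1β (8.01 to 10.4) on Illumina, and 2.58 and 8.36 on Ion Torrent. The groups did not overlap in any of the 6 tables. The level of Slc3a2 over that sum had a median of 4.31 in untreated and 2.08 in IL-1β livers on Illumina, where the groups overlapped, and 5.16 and 2.46 on Ion Torrent, where they did not. Slc3a2 was still above the sum of its light chains in each of the 20 libraries. Within the light chains, Slc7a6 made up a median of 3.28% of the summed level in untreated livers and 30.9% after IL-1β on Illumina (6.19% and 27.1% on Ion Torrent), without overlap in any table. The share of Slc7a7 had medians of 41.2% and 45.1% and overlapped between groups. The share of Slc7a8 had medians of 24.0% and 10.3%, without overlap in any table, although its own log2 fold changes were above 0.

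**Figure D2:**
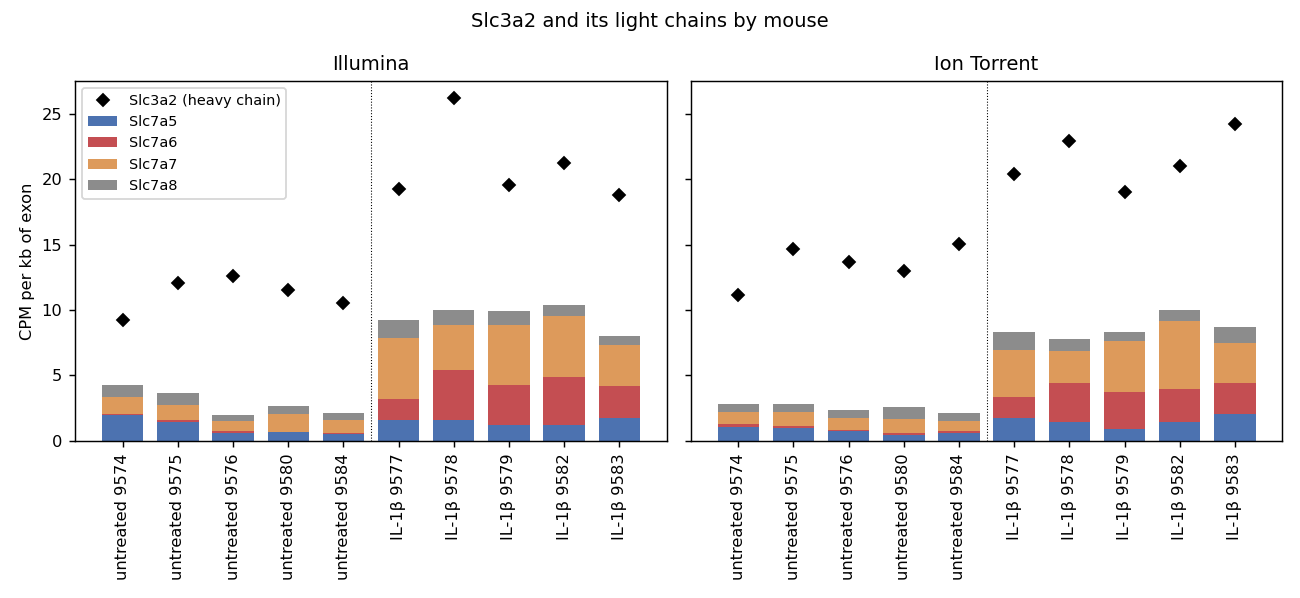
Level of the light chains Slc7a5 to Slc7a8 (stacked bars) and of their heavy chain Slc3a2 (diamonds) in each mouse, in CPM per kb of exon, for the Illumina and Ion Torrent GSNAP tables; the dotted line parts 5 untreated from 5 IL-1β mice. The bars total 1.99 to 4.30 in untreated and 8.01 to 10.4 in IL-1β livers on Illumina, and the Slc7a6 block is hardly visible before IL-1β.

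The cationic transporters, which need no heavy chain, split. Slc7a1 (CAT1, chr5:149138986-149211480, minus strand), the arginine transporter of most tissues but a scarce RNA in liver, had 9, 9, 11, 15 and 4 reads in untreated Illumina libraries and 60, 64, 42, 53 and 45 after IL-1β. The fold was 6.13 (log2 2.62, SE 0.25, adjusted p = 1.20e-06 by edgeR), and 6.61 on Ion Torrent. Slc7a2 (CAT2, chr8:41947750-42007662, plus strand), whose liver form has a low affinity for arginine, had by far the higher count. It read 11012, 10472, 6816, 12249 and 10059 untreated and 6989, 7243, 8265, 11570 and 10657 after IL-1β. The groups overlapped fully, with a log2 fold change of 0.00 (95% interval -0.39 to 0.38, adjusted p = 1.0 by edgeR) and 0.02 on Ion Torrent (-0.34 to 0.37). The level of Slc7a2 over that of Slc7a1 had a median of 959 in untreated and 162 in IL-1β livers on Illumina (667 and 87.4 on Ion Torrent), and did not overlap in any table. Slc7a4, a relative without known transport of its own, had 5 to 11 reads per Illumina library and was not called.

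Slc7a11 is among the 8 undetected SLC7 genes. It encodes xCT, the light chain that imports cystine for glutathione synthesis in exchange for glutamate. It held 0 reads in all 5 untreated Illumina libraries and 2, 9, 2, 8 and 1 after IL-1β, and on Ion Torrent 1 read in UNT_9584 and 4, 8, 1, 4 and 1 after IL-1β. At this depth the count stayed under the minimum for a test, and a count of 0 over the untreated libraries allows up to 3 reads. Its largest count in any library was 15, in ILB_9578 on Ion Torrent with STAR + Bowtie2.

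Promoter sequences from RefSeq (GRCm38.p6 build, a later build than that of the counts) were available for 41 of the 59 symbols, as 62 promoters. The 250 bases before each start were searched on both strands for TGATGNAAN, the amino acid response element bound by ATF4 with C/EBP proteins, for TTCNNNGAA, bound by STAT proteins, and for TTNNGNAA, a C/EBP motif. The response element was found in 3 of the 62 promoters (4.84%, against 3.44% of 32851 mouse promoters), the STAT motif in 4 (6.45% against 7.02%) and the C/EBP motif in 20 (32.3% against 36.8%). The share with the response element lay above that of all promoters and the other shares below, without a test. The response elements lay in 2 of the 5 promoters listed for Slc7a7 and in that of Slc7a11, and these are shown because both genes are light chains that held more reads after IL-1β; a promoter of Slc7a1 and another of Slc7a6, which had the largest folds of the family, stand beside them. The other promoter listed for Slc7a1 and the other for Slc7a6 have no match. The promoters listed for Slc1a1, Slc3a2, Slc36a4, Slc38a2 and Slc43a1, which also rose, have no match either. Sequence after the start or further upstream was not searched, so a missing match says nothing about elements there. Matches are in capitals, on either strand, and a match is a string of letters, not a tested binding site.

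Slc7a7, chr14:54417945-54418194, minus strand, response element from -141: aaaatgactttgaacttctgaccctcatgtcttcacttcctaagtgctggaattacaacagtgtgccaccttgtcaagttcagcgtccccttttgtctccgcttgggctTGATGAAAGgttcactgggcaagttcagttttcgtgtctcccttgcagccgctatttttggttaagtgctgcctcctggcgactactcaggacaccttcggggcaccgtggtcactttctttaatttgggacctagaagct

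Slc7a7, chr14:54417703-54417952, minus strand, response element from -243: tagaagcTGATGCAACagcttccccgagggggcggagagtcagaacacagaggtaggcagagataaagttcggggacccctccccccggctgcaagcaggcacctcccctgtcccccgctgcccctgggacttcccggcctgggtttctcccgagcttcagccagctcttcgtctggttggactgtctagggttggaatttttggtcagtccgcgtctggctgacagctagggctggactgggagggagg

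Slc7a11, chr3:50443614-50443863, minus strand, response elements from -66 and -48, STAT motif from -183, C/EBP motifs from -160 and -95: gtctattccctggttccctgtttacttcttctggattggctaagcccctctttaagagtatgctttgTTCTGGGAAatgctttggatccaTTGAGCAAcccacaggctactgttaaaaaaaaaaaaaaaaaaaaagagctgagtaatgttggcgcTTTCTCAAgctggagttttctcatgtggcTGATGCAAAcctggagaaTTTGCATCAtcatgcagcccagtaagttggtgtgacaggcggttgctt

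Slc7a1, chr5:148392816-148393065, minus strand, STAT motif from -146, C/EBP motif from -112: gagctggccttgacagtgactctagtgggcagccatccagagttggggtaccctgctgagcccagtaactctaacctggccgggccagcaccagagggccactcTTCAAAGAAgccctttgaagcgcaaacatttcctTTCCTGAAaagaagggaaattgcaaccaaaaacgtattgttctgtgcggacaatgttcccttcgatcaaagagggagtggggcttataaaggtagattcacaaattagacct

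Slc7a6, chr8:106168604-106168853, plus strand, no match: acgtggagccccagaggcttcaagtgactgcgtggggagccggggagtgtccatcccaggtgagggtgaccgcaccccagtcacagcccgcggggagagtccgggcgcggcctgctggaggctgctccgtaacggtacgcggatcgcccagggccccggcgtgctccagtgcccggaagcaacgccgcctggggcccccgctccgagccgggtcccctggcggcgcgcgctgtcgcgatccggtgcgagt

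In the SLC1 family the 2 members that rose had low counts. Slc1a1 (EAAT3, chr19:28909539-28988450, plus strand), a glutamate, aspartate and cysteine transporter, had 1, 1, 1, 0 and 0 reads in untreated Illumina libraries and 7, 7, 15, 13 and 11 after IL-1β. On Ion Torrent it had 2 reads in UNT_9575 and 0 in the other 4 untreated libraries, against 6, 15, 18, 8 and 7. The summed reads of 53 against 3 gave a ratio of 19.9 on Illumina, with an exact counting interval of 6.46 to 99.6, and 54 against 2 gave 30.0 on Ion Torrent (7.90 to 254). The test called it in each table (adjusted p = 2.34e-05 and 0.000108 by edgeR in the GSNAP tables), but the fitted log2 of 4.05 depends on the prior count. Slc1a1 reached the minimum of reads through its IL-1β libraries alone, so it could only have come out higher, and its call is a description. Its exons share 185 bases with 4430402I18Rik on the other strand, a gene that was lower with IL-1β (log2 -1.57 and -1.88).

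Slc1a5 (ASCT2, chr7:17366695-17383623, plus strand), an exchanger of glutamine and other neutral amino acids, had 48, 36, 44, 26 and 29 reads untreated and 136, 62, 77, 66 and 111 after IL-1β, a fold of 2.78 (log2 1.47, SE 0.24, adjusted p = 0.000131 by edgeR; 2.2 on Ion Torrent). Its relative Slc1a4 (ASCT1) had 24 to 51 and 30 to 46 reads and was not called in any table. Slc1a2 (EAAT2, chr2:102498816-102630941, plus strand), the glutamate transporter with the highest count of the family, had 2870, 2296, 2342, 2296 and 2560 reads untreated and 1619, 1666, 1677, 2201 and 1952 after IL-1β. After scaling the groups overlapped on Illumina, and its log2 fold change was -0.27 on Illumina (adjusted p = 0.0665 by edgeR), which was not called, and -0.30 on Ion Torrent (adjusted p = 0.0201 by edgeR), which was called lower. The Illumina call was made without ILB_9582 (log2 -0.36), and the Ion Torrent call was lost without ILB_9577 (-0.26) or UNT_9574 (-0.23). Slc1a3 (EAAT1) had 0 to 5 reads per Illumina library and was not called.

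The other heavy chain, Slc3a1 (rBAT, chr17:85427687-85463583, plus strand), which carries the cystine transporter of kidney, had the higher count of the SLC3 family. It read 703, 578, 582, 697 and 652 untreated and 860, 902, 525, 731 and 705 after IL-1β on Illumina. The groups overlapped. The log2 fold change of 0.38 was called on Illumina (SE 0.13, adjusted p = 0.0262 by edgeR), and that of 0.25 on Ion Torrent was not (adjusted p = 0.154 by edgeR). On Illumina GSNAP the call was lost without ILB_9577, ILB_9578 or ILB_9582 and without UNT_9575 or UNT_9576 (log2 0.28 to 0.37). Without ILB_9579 it was instead called higher in all 6 tables, the Ion Torrent GSNAP log2 fold change being 0.35 (adjusted p = 0.0344 by edgeR). A stretch of 608 bases of its transcript is identical to Prepl, which lies on the other strand, so that its count is uncertain. Prepl had means of 327.8 and 299.4 reads. The light chain partner of Slc3a1, Slc7a9, was not detected.

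The SLC6 family held both directions. Slc6a8 (chrX:70918489-70927841, plus strand), the creatine transporter, rose most clearly: its untreated Illumina counts were 98, 91, 80, 77 and 69 and its IL-1β counts 280, 360, 254, 313 and 370, a fold of 4.29 (log2 2.10, SE 0.14, adjusted p = 2.68e-08 by edgeR). On Ion Torrent the counts were 93 to 132 and 279 to 464, a fold of 3.79.

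The neighbours Slc6a13 (GAT2, chr6:121250245-121287751, plus strand), which takes up GABA and taurine, and Slc6a12 (BGT1, chr6:121293094-121315793, plus strand), which takes up betaine and GABA, both fell. Slc6a13 went from 2645, 2847, 3023, 3073 and 2822 reads to 1467, 1053, 1533, 1536 and 1326, a 1.85-fold fall (log2 -0.89, SE 0.11, adjusted p = 1.51e-05 by edgeR). Slc6a12 went from 881, 899, 981, 962 and 844 reads to 596, 410, 507, 554 and 566, a 1.54-fold fall (log2 -0.62, SE 0.10, adjusted p = 0.000180 by edgeR). The groups of both genes did not overlap in any table, and ILB_9578 was the lowest library for both on both platforms.

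Slc6a4, the serotonin transporter (chr11:76812105-76845842, plus strand), was lower at counts near 0. It reached the minimum through its untreated libraries alone, and in the Ion Torrent STAR + Bowtie2 table alone, so its direction too is a description. It had 6, 3, 3, 3 and 5 reads in untreated Illumina libraries and 1 read in ILB_9579 and 0 in the other 4. The ratio of untreated to IL-1β reads, 20 against 1, was 17.7 with an exact counting interval of 2.84 to 735. On Ion Torrent it had 9, 4, 4, 5 and 8 reads untreated and 2, 1, 0, 4 and 2 after IL-1β, so the groups met at 4 reads. The Ion Torrent GSNAP fall was 2.88-fold (adjusted p = 0.0364 by edgeR) and was not called without any of 6 of the mice, ILB_9577, ILB_9578, ILB_9579 or ILB_9583 or UNT_9574 or UNT_9584 (log2 -1.22 to -1.59). Slc6a6, the taurine transporter, had 1374 to 1950 reads untreated and 1233 to 1999 after IL-1β and was not called. Slc6a9, the glycine transporter GlyT1, was called lower in the 3 Ion Torrent tables and in 0 of the Illumina tables (log2 -0.37 to -0.48, against -0.15 to -0.18 on Illumina). A stretch of 1264 bases of its transcript is 99.9% identical to Ccdc24 on the other strand, which had a mean of at most 2.8 reads.

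The 2 detected SLC36 genes moved apart. Slc36a1 (PAT1, chr11:55017852-55049832, plus strand), a proton-coupled exporter of small amino acids from lysosomes, had 636, 636, 513, 486 and 430 reads untreated and 252, 175, 128, 131 and 161 after IL-1β. That is a 2.83-fold fall (log2 -1.50, SE 0.16, adjusted p = 3.58e-06 by edgeR), and on Ion Torrent it was 2.84-fold, with no overlap in any table. Slc36a4 (PAT4, chr9:15514182-15546828, plus strand), which carries proline and tryptophan with high affinity, had 173, 141, 149, 148 and 86 reads untreated and 197, 240, 158, 171 and 227 after IL-1β, a fold of 1.61 (log2 0.69, SE 0.16, adjusted p = 0.00284 by edgeR). Its IL-1β counts on Ion Torrent were 158 to 166 in 4 mice and 311 in ILB_9578, and the call held there without that mouse.

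The SLC38 family carries the bulk of amino acid transporter RNA in liver. In untreated livers Slc38a3 stood at 424 ± 47.6 CPM per kb (SD, n = 5) and Slc38a4 at 357 ± 39.7 on Illumina, so that their ranges touched, and next came Slc7a2 at 91.3 ± 18.9, Slc6a13 at 81.8 ± 6.50, whose spread overlaps that of Slc7a2, and Slc38a2 at 39.6 ± 4.71. After IL-1β Slc38a3 was at 324 ± 56.1 and Slc38a4 at 165 ± 27.2, no longer within each other's range, followed by Slc7a2 at 91.1 ± 22.4 and Slc38a2 at 84.0 ± 18.2, which overlapped, and Slc6a13 at 44.2 ± 6.45. On Ion Torrent Slc38a3 was above Slc38a4 in untreated livers too, 1.49 to 2.03 times with GSNAP against 1.86 to 3.23 times after IL-1β, and the groups overlapped in this ratio in all 3 tables. The summed level of the members had a median of 1144 CPM per kb in untreated and 897 in IL-1β livers, without overlap in any table. Slc38a3 and Slc38a4 together made up 67.8% of it in untreated and 55.1% in IL-1β livers on Illumina (70.7% and 59.9% on Ion Torrent), again without overlap in any table.

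Slc38a4 (SNAT4, chr15:96825254-96886387, minus strand), the sodium-coupled neutral amino acid transporter typical of hepatocytes, had 17941, 18302, 15018, 16927 and 18983 reads untreated and 6420, 5825, 7216, 8604 and 7728 after IL-1β. The highest IL-1β library lay far below the lowest untreated library. The fall was 2.16-fold (log2 -1.11, SE 0.13, adjusted p = 6.48e-06 by edgeR) and 1.97-fold on Ion Torrent. Slc38a2 (SNAT2, chr15:96517825-96530129, minus strand), the system A transporter whose transcript is known to be raised by amino acid shortage, lies on the same chromosome and moved the other way. It had 2289, 1866, 2360, 2198 and 2384 reads untreated and 2904, 4182, 5266, 4443 and 4100 after IL-1β, a fold of 2.12 (log2 1.09, SE 0.15, adjusted p = 3.03e-05 by edgeR; 2.16 on Ion Torrent). The level of Slc38a2 over that of Slc38a4 had a median of 0.111 in untreated and 0.462 in IL-1β livers on Illumina (0.105 and 0.400 on Ion Torrent), and the groups did not overlap in any table.

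Slc38a3 (SNAT3, chr9:107552970-107569705, minus strand), the system N transporter that moves glutamine and histidine, fell with a smaller fold change. It had 17440, 17790, 16656, 20487 and 14925 reads untreated and 13524, 8396, 11810, 11955 and 13404 after IL-1β. The fall was 1.31-fold (log2 -0.39, SE 0.13, adjusted p = 0.0248 by edgeR) and 1.38-fold on Ion Torrent (adjusted p = 0.0321 by edgeR), where ILB_9583 reached into the untreated range after scaling. The Illumina GSNAP call was lost without UNT_9580 (log2 -0.32). The Ion Torrent GSNAP call was lost without ILB_9578, ILB_9579 or ILB_9582 and without UNT_9575, UNT_9580 or UNT_9584 (log2 -0.33 to -0.47).

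Of the other SLC38 genes, Slc38a9, Slc38a7 and Slc38a6 were lower in all 6 tables. Slc38a9 (ENSMUSG00000047789, chr13:113450984-113523106, plus strand), the lysosomal arginine sensor for the kinase complex mTORC1, had 116, 87, 103, 123 and 157 reads untreated and 55, 69, 42, 50 and 51 after IL-1β, a 1.96-fold fall (log2 -0.97, SE 0.19, adjusted p = 0.000748 by edgeR). The other gene listed as Slc38a9 (ENSMUSG00000069056, chr13:113523861-113525267, plus strand) begins just past its end; it had 14 to 31 reads untreated and 8 to 22 after IL-1β and was called lower in 2 of the tables. Slc38a7 (chr8:98359820-98377439, minus strand), a lysosomal glutamine exporter, went from 234, 286, 254, 275 and 239 reads to 134, 134, 157, 141 and 123, a 1.66-fold fall (log2 -0.73, SE 0.11, adjusted p = 5.97e-05 by edgeR). Slc38a6 (chr12:74387766-74455036, plus strand) went from 94, 85, 82, 89 and 82 reads to 47, 52, 41, 54 and 48, a 1.58-fold fall (log2 -0.66, SE 0.13, adjusted p = 0.000848 by edgeR). A near-copy of it, Gm17672, is 98.8% identical over 1385 bases and had at most 0.2 reads on average. Slc38a10 was called higher in the 3 Illumina tables and in 0 of the Ion Torrent tables (log2 0.40 to 0.45, against 0.21 to 0.23 on Ion Torrent). Slc38a1 had 6 to 27 and Slc38a5 0 to 3 reads per Illumina library, and neither was called.

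**Figure D3:**
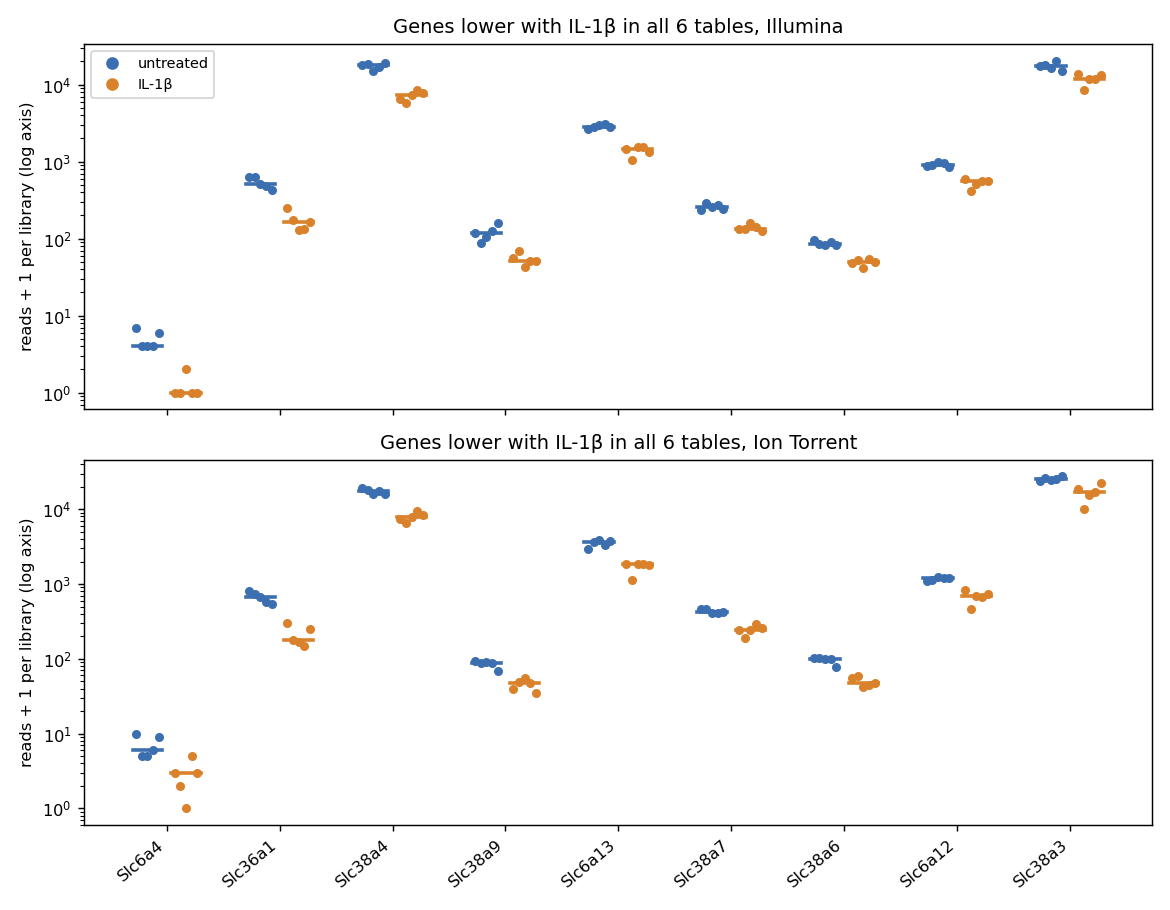
Reads per library, plus 1 so that 0 can be drawn, for the 9 members lower with IL-1β in all 6 tables, in the Illumina and Ion Torrent GSNAP tables on a log axis; points are the 5 mice of a group and bars their median. Slc38a4 and Slc6a13 separate cleanly, while Slc6a4 lies between 0 and 9 reads throughout.

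In the SLC43 family, Slc43a1 (LAT3, chr2:84679007-84703751, plus strand), which carries leucine and other branched-chain amino acids, rose. It had 80, 90, 78, 119 and 57 reads untreated and 193, 288, 185, 188 and 352 after IL-1β, a fold of 3.22 (log2 1.69, SE 0.22, adjusted p = 2.22e-05 by edgeR; 3.21 on Ion Torrent). Its neighbour Slc43a3 (chr2:84776736-84798666, plus strand), which carries purine nucleobases rather than amino acids and had the highest count of the family, held 534, 500, 448, 365 and 358 reads untreated and 451, 401, 377, 406 and 319 after IL-1β. Its log2 fold change was 0.00 (95% interval -0.24 to 0.25). Slc43a2 (LAT4) was called lower in 2 Ion Torrent tables, with log2 fold changes of -0.32 to -0.56 over all 6.

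**Figure D4:**
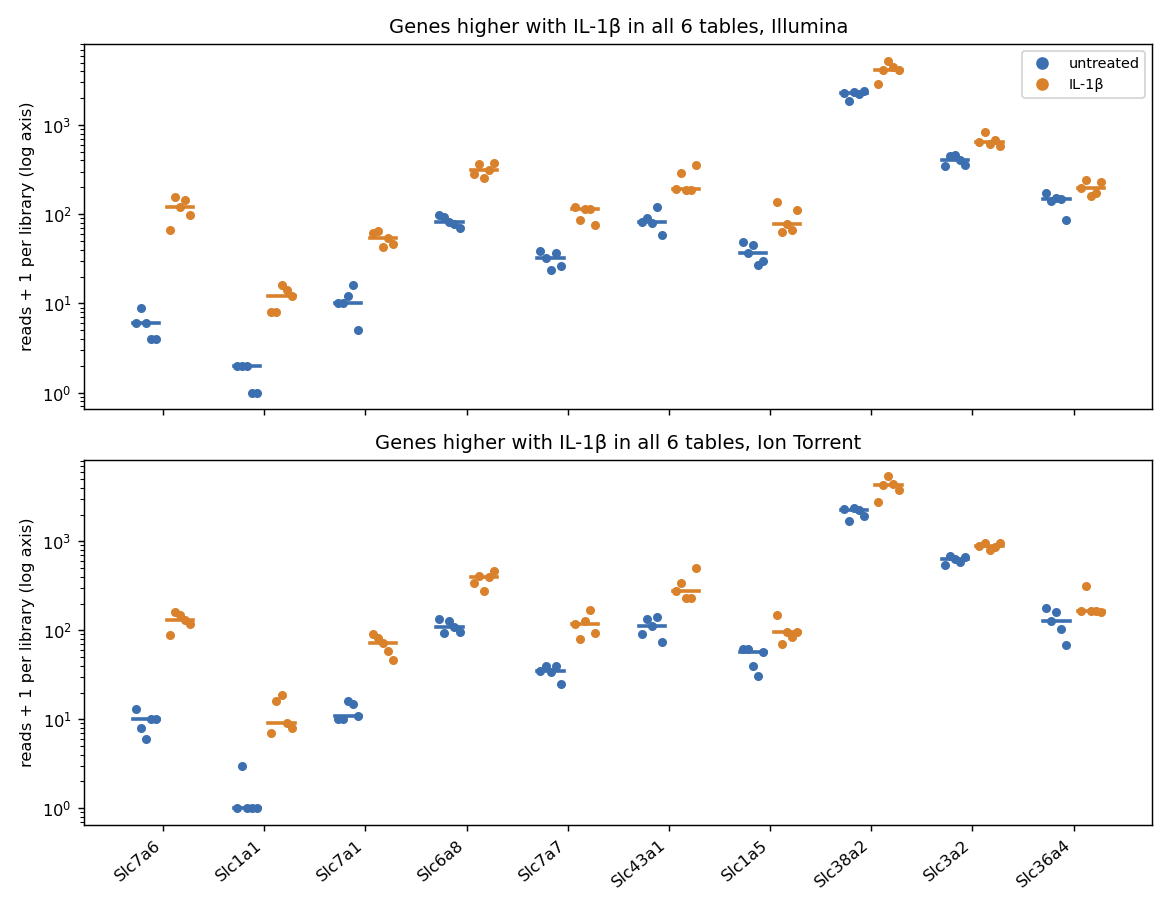
Reads per library, plus 1 so that 0 can be drawn, for the 10 members higher with IL-1β in all 6 tables, in the Illumina and Ion Torrent GSNAP tables on a log axis; points are the 5 mice of a group and bars their median. Slc7a6 goes from 3 to 8 reads in untreated to 65 to 154 in IL-1β Illumina libraries, and Slc38a2 is the member with the most reads.

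Members that rose in all 6 tables were mostly scarce before IL-1β and members that fell were mostly abundant. Ranked from 1 to 35 by level in untreated Illumina libraries, 8 of the 9 members that fell held ranks between 1 (Slc38a3) and 24 (Slc38a6), and Slc6a4 was at 32. Of the 10 that rose, 8 held ranks between 17 (Slc36a4) and 34 (Slc1a1), while Slc38a2 and Slc3a2 were at 5 and 11. After IL-1β Slc7a6 ranked 19 and Slc6a8 14, from 19 before. The untreated level enters both the level and the fold change, and the minimum of reads lets in a gene near 0 in untreated livers only if it is higher with IL-1β, as with Slc1a1. The pattern is therefore a description with no test.

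**Figure D5:**
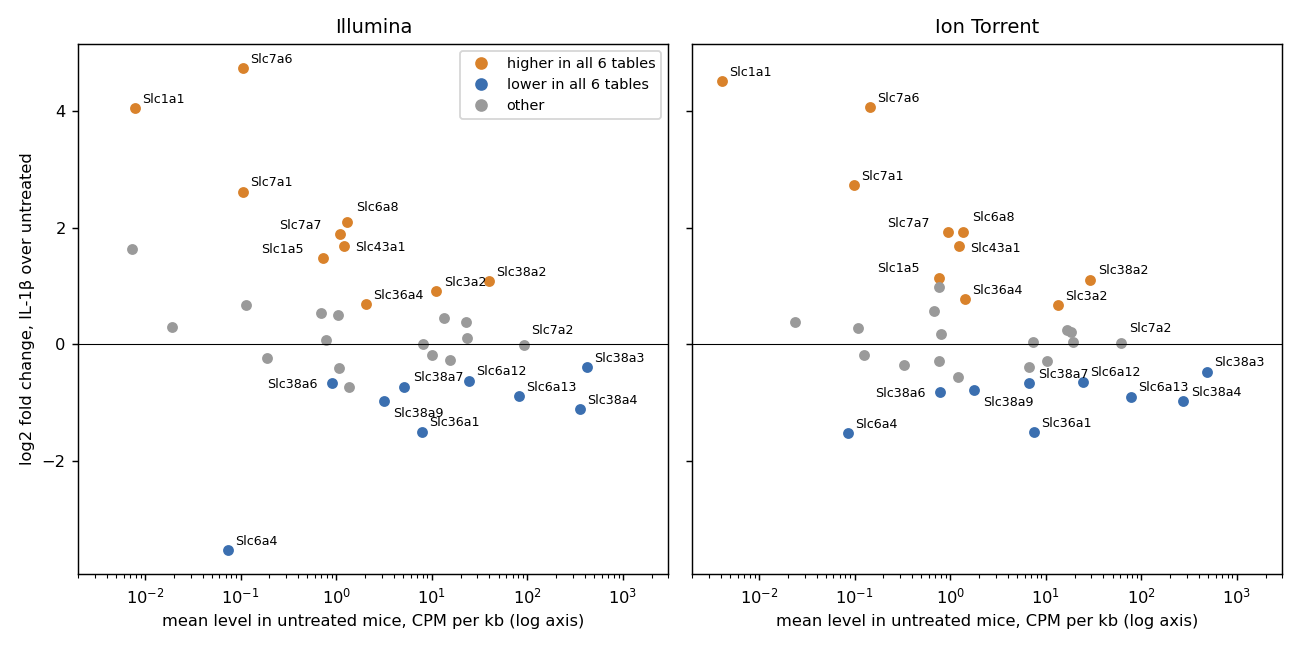
Log2 fold change with IL-1β against the mean level in untreated mice (CPM per kb of exon, log axis) for the 35 detected members in the Illumina and Ion Torrent GSNAP tables; colours mark members higher or lower in all 6 tables. Slc7a6 and Slc1a1 sit at the upper left, and Slc38a3 and Slc38a4 at the lower right with untreated Illumina levels of 424 and 357.

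No member was called as responding differently on the 2 platforms. The platform-by-treatment term, fitted with edgeR over both platforms for each aligner, keeping the mouse as a blocking factor, was called for 0 of 35 members with each aligner (0.0642%, 0.00642% and 0.0770% of all genes were called with GSNAP, STAR and STAR + Bowtie2). At an unadjusted p below 0.05 there were 3, 2 and 2 members. Slc3a2 was among them with each aligner: its log2 fold change was lower on Ion Torrent by 0.24 with GSNAP (95% interval of the difference -0.46 to -0.02). A miss of the threshold does not show that the platforms responded alike, and for scarce members the interval was wide, as for Slc6a4 with GSNAP (-0.25 to 4.39).

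Genes around amino acid supply were counted from lists. Of 25 tested genes linked to the transcription factor ATF4 and the response to amino acid shortage, 18 to 19 were higher and 2 to 3 lower over the 6 tables, with median log2 fold changes of 1.14 to 1.24, where the median of all genes tested was between -0.01 and 0.00. Mthfd2, a mitochondrial folate enzyme, went from a mean of 23.8 to 515.2 reads on Illumina, and Ddit4, an inhibitor of mTORC1, from 66.6 to 703.0. Asns, asparagine synthetase, went from 46.6 to 121.0, while Shmt2 and Cth, of serine and cysteine metabolism, fell (log2 -0.81 and -0.68). Of 19 tested genes of amino acid sensing by mTORC1, 3 to 5 were higher and 3 to 5 lower, close to the 20.3% to 24.4% of all genes called in each direction in a table. Lamtor3 and Rraga, which anchor mTORC1 at the lysosome, were higher on Illumina (log2 0.77 and 0.57) and Sesn1, a leucine sensor of the sestrin family, was lower (-0.90). Of 15 tested amino acid transporters outside the 7 families, 3 to 5 were higher and 2 to 3 lower, again near that background. Slc15a3, a lysosomal peptide and histidine transporter, went from a mean of 34.4 to 85.6 reads, Slc15a2, a peptide transporter, from 50.8 to 143.8, and Slc16a10, a carrier of aromatic amino acids, from 1629.0 to 2169.0 (log2 1.49, 1.66 and 0.59). Slc17a8, a vesicular glutamate transporter, fell from a mean of 246.2 to 59.2 reads and Slc25a13, the mitochondrial aspartate and glutamate carrier citrin, from 3401.6 to 1245.0.

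Cell type markers moved too, and their counts can be read against the 20.3% to 24.4% of all genes called in each direction in a table. All 6 tested neutrophil markers were higher in each table (median log2 5.24 to 5.73), and their summed level was 2.51 to 5.39 CPM in untreated and 52.5 to 110 CPM in IL-1β Illumina libraries; 4 of the 10 listed, Ly6g, Mpo, Elane and Camp, were not detected. In the GSNAP tables Ngp, Retnlg and Cxcr2 held at most 4 reads in an untreated library and reached the minimum through the IL-1β libraries, so their direction was fixed by it. S100a8, S100a9 and Csf3r had means of 6.4, 10.6 and 23.8 reads in untreated and 223.0, 387.0 and 106.2 in IL-1β Illumina libraries. The lowest untreated counts of S100a8 were 4 on Illumina and 1 on Ion Torrent, so in these tables it passed the minimum only with the help of IL-1β libraries. The same holds for S100a9 on Illumina (lowest untreated count 4), but not on Ion Torrent (9). Of 9 tested hepatocyte markers 1, Hnf4a, was higher and 4 to 5 were lower. Of 9 Kupffer cell and macrophage markers 1 was higher and 3 to 4 lower (168.9 to 285.7 CPM summed in untreated and 98.0 to 220.9 in IL-1β libraries), of 10 endothelial markers 2 were higher and 5 to 7 lower (179 to 275 and 134 to 207), of 5 lymphocyte markers 0 were higher and 2 to 3 lower (2.01 to 4.44 and 1.33 to 1.97), and of 10 stellate and cholangiocyte markers 2 were higher and 1 lower (106 to 146 and 93.6 to 143). The lymphocyte markers lie so near the minimum of reads that it may have let some in through their untreated libraries, which favours a lower call. Any member that rose, such as Slc7a6, Slc1a1 or Slc7a1, shares its direction with the neutrophil markers. A shared direction therefore says nothing about which cells held its RNA. The part of neutrophils and of the other cell types in the changes of the transporters was not tested.

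The remaining 25 members were not detected. They were 2 of 7 SLC1, 11 of 17 SLC6, 8 of 15 SLC7, 2 of 4 SLC36 and 2 of 12 SLC38 genes, and none of the SLC3 or SLC43 genes. No read at all was counted for Slc6a3, the dopamine transporter, or Slc7a12. Only 6 of the 25 held over 40 reads over the 6 tables. Among them Slc6a7, the proline transporter of brain, had 16 reads in untreated and 1 in IL-1β Illumina libraries, and Slc6a14, an amino acid transporter of wide range, had 0 in untreated and 7 in IL-1β libraries, 4 of them in ILB_9582. Slc6a19, the neutral amino acid transporter of kidney and gut, held at most 1 read in any library.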

How the data were processed

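Liver RNA of 10 mice was measured on 2 platforms. Per the labels and the study's methods, the authors aligned the reads to mm9 (the submitters' processing notes name GSNAP, STAR 2.5.1b and Bowtie2 2.2.9), and their pipeline removed ribosomal and mitochondrial reads, re-sampled each library to the depth of the smallest of its table and counted reads per Ensembl gene. The deposited gene counts of each of the 6 tables were used as they stand. Whether counting was by strand, and whether an Illumina pair counts once, is not given in the sources used here. The re-sampling evens out depth within a table, so that library totals differ by little, and it sets the floor for scarce genes.

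Each table was fitted on its own with edgeR 4.0.16 (R 4.3.3; limma 3.58.1): TMM scaling, quasi-likelihood test of IL-1β against untreated, no covariate, and Benjamini-Hochberg adjustment over the 15578 genes with at least 5 reads in 5 libraries of any table. An adjusted p below 0.05 was a call. The platform-by-treatment term was fitted on the 20 libraries of each aligner with the mouse as a block. The mouse number in the labels ties the 2 libraries of a liver, and these deviated together (correlations of 0.197 to 0.746). Within a table no mouse carries both treatments. Intervals and floors of reads cover counting error only, and a count of 0 allows up to 3 reads at 95%. Tools were tested on simulated counts of 15578 genes, 200 of them changed by 1.5 on the log2 scale. The changed genes were drawn only from genes well counted on both platforms, and all genes were given the same dispersion. The numbers found therefore do not speak for scarce members such as Slc1a1, Slc6a4 or Slc7a1. For Illumina GSNAP, edgeR found 200 with 13 false calls, limma-voom 196 with 11, DESeq2 200 with 24, and the rank-sum test 0 with 0. The rank-sum result was fixed by this setting. With 5 libraries per group its smallest p cannot pass the adjustment when only 200 of 15578 genes change. In the real counts, where far more genes change, it called 35.7% to 40.1% of all genes. Alternatives were DESeq2 1.42.0, limma-voom, rank-sum tests, other scalings and filters, and leaving out each mouse.

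The members and gene lists were chosen with earlier results of these data known. Described in full were members called the same way in all 6 tables, the member of each family with the highest untreated count, and members whose call differed by platform or direction; others, such as Slc7a5, Slc7a8, Slc7a11 and the example genes of the lists, were picked after their values were seen. Promoter letters are RefSeq's (GRCm38.p6); near-copies were found with BLAST among annotated transcripts, and gene positions are those of the mm9 annotation.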

Additional observations from a re-analysis of the deposited data

Results flagged for a closer look

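Among the 23 members described in full, 92 groups of 5 libraries were checked in the GSNAP tables for a library that stood far from the other 4, by Dixon's ratio of the gap to the range. This found 6, where chance alone flags about 1 in 20 groups. Slc1a1 had 2 reads in UNT_9575 on Ion Torrent and 0 in the other 4 untreated libraries. Slc6a4 had 1 read in ILB_9579 on Illumina and 0 in the others of its group. Both differ from their group by no more than 2 reads.

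ILB_9578 stood apart for 2 members on Ion Torrent. It had 311 reads of Slc36a4, where the other IL-1β libraries had 158 to 166, and 1119 reads of Slc6a13, where the others had 1818 to 1873. UNT_9584 stood apart for 2 others on Ion Torrent, with 68 reads of Slc38a9 against 86 to 93 and 77 reads of Slc38a6 against 97 to 102. The calls of these 4 genes held in all 6 tables without the mouse concerned.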

How the results depend on the processing

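The count of members called stayed within 1.5 times its main value under DESeq2, limma-voom, both rank-sum tests, other scalings, other filters and without each mouse. In these alternatives other than the rank-sum tests, no called direction of a described gene turned. The split of called members on Illumina did depend on scaling. With library totals only it was 11 higher and 12 lower (GSNAP), 10 and 12 (STAR) and 10 and 11 (STAR + Bowtie2). The main fits had 12 and 9, 12 and 10, and 12 and 10. Scaling by library totals only shifted the median of all genes by -0.092 to -0.114 on the log2 scale, and with it the median over the 35 members went to -0.017 (Illumina GSNAP), -0.021 (STAR) and -0.025 (STAR + Bowtie2), from 0.11, 0.11 and 0.081. On Ion Torrent it went to -0.065, -0.092 and -0.039, from 0.047, 0.029 and 0.065.

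Without each mouse in turn, 20 to 22 members were called in each Illumina table, 19 to 23 in the Ion Torrent GSNAP and STAR tables and 21 to 23 with STAR + Bowtie2, and the median over the members ran from 0.021 to 0.195 on Illumina GSNAP and from 0.022 to 0.291 with STAR, and from 0.020 to 0.184 on Ion Torrent STAR. On Ion Torrent the split of calls moved towards the higher members without ILB_9579, to 13 higher and 8 lower with GSNAP. Over all tables and the alternatives other than the rank-sum tests, 2134 refits of the 23 described members kept their side of the threshold. Another 60 lost the call and 9 gained it, and these changes belong to Slc3a1, Slc38a3, Slc6a4 and Slc1a2. Calls of single members by the rank-sum tests are not part of these numbers. Adjusted p (edgeR) was 0.0533 to 0.0763 for Slc38a3 without UNT_9580 over the 6 tables, and for Slc3a1 on Illumina 0.0844 to 0.195 with library totals only. The Slc1a2 call was gained on Illumina with library totals only (0.00699 to 0.0118). For Slc6a4 on Ion Torrent it was lost with DESeq2 (0.0574 with GSNAP, 0.0532 with STAR) and, with GSNAP, when all genes were tested without a filter (0.0635). The cause of these changes was not tested.

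The platform-by-treatment term without the replicate block, that is, ignoring that each mouse pairs 2 libraries, called 0 members with each aligner, as did the term with it under DESeq2, limma-voom, library totals only and no filter. Within a table no paired fit can be made, since each mouse received 1 treatment.

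Depth limits the scarce members: Slc1a1, Slc6a4 and Slc7a11 rest on at most 18 reads in a GSNAP library.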
